A study of Mus musculus with 11 samples.

Results

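The genes described here are 34 listed genes of DNA replication and mitosis, chosen by name and measured in whole mouse pancreas. Of these, 33 had a probe set annotated to 1 gene, and each was represented by the probe set that was brightest on average across the 11 arrays, among 18194 genes read in the same way. Of the 33, 30 passed the limit for dim genes, a mean log2 signal of 6.87, and were tested together with all 15897 genes above it. Tyms, which makes thymidylate, Kif20a, a kinesin of the dividing cell's midzone, and Bub1, a spindle checkpoint kinase, lay below the limit, and Ccnb1, the mitotic cyclin B, was not analysed here. The arrays came from female Balb/C offspring, 30 days old, and the 4 groups were low protein STZ (3 arrays), low protein sham (3 arrays), control STZ (2 arrays, labelled replicates 1 and 3) and control sham (3 arrays). Low protein and control name the food of the dam in gestation, with 8% and 20% protein at equal calories, and every dam ate the control food once the pups were born. STZ is streptozotocin, a nitrosourea sugar that beta cells take up through the glucose transporter Slc2a2, given at 35 mg per kg once a day on days 1 to 5, and sham is the citrate buffer alone. The comparisons address whether the early toxin and the dam's diet left a difference in replication and mitosis transcripts in the pancreas, and whether the toxin's difference depended on the diet.

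Before a cell copies its DNA, the loading factors Cdc6 and Cdt1 place the ring of Mcm proteins on replication origins, a step called licensing. The copying forks then need the sliding clamp Pcna and deoxynucleotides made by ribonucleotide reductase. Cyclins with Cdk1, the Aurora kinases and Plk1 drive the cell into mitosis, where spindle and kinetochore proteins separate the chromosomes and the anaphase-promoting complex ends the process. Most adult acinar and islet cells rest outside the cycle, and in young rodents a minority of pancreatic cells still divides, so transcripts of this kind usually stand for a small share of the tissue.

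Genes of this kind commonly share promoter elements, and 28 of the 34 genes had a promoter in RefSeq's table (GRCm38.p6), a window of 300 bases with 250 before and 50 after the start site. The cell cycle homology region (CHR, searched as TTTGAA or TTCGAA) was found in 15 of the 28 windows, 53.57%, against 19.44% of all 27025 windows. The CCAAT box (CCAAT) was found in 23 windows, 82.14%, against 37.92% of all. An E2F core (TTCCCGC or TTGGCGC) was found in 10, 35.71%, against 6.93% of all. Both strands were searched, and a match describes letters in the window only. The windows of 4 genes described below, Cdt1 and Cenpq for their small p in several comparisons and Mki67 and Cdk1 as examples that hold all 3 motifs, are shown 5′ to 3′ on the gene's strand, with matches of the 3 motifs in capitals. Cdt1 (chr8:122567765-122568064, plus strand) held 2 E2F cores, Cenpq (chr17:40934525-40934824, minus strand) held 3 CCAAT boxes, 2 of them side by side, and Mki67 (chr7:135716330-135716629, minus strand) and Cdk1 (chr10:69352863-69353162, minus strand) each held 2 CHR elements, 3 CCAAT boxes and 1 E2F core.
Cdt1: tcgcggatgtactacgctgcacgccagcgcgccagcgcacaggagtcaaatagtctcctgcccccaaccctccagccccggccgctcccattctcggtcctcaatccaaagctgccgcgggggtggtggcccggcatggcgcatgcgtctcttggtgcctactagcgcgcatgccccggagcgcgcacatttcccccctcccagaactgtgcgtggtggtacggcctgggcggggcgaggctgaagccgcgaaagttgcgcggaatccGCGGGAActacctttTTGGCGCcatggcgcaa
Cenpq: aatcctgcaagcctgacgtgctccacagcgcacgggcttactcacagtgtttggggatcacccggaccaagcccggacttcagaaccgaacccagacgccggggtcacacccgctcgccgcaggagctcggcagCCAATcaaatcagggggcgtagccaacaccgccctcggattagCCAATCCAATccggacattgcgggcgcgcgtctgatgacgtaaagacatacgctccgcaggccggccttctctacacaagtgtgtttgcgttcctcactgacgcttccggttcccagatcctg
Mki67: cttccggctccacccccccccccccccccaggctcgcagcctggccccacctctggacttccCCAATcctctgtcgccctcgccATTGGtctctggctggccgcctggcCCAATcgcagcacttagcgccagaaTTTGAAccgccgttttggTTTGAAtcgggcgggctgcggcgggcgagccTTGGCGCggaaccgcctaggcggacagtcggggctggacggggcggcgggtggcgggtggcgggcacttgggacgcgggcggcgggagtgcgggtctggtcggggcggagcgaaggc
Cdk1: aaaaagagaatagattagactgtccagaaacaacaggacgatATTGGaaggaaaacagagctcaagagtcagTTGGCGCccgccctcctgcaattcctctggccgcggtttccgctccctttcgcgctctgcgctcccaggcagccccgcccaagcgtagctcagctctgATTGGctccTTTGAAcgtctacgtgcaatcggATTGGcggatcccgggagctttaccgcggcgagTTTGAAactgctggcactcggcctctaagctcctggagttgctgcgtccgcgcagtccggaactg

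The values are log2 signals as deposited, with array medians between 7.92 and 7.97, and the number of arrays limits their precision. The tissue label was checked against acinar markers: all 8 measured markers lay above the limit, and the list's mean was 13.88 to 14.54 in low protein STZ, 14.24 to 14.37 in low protein sham, 14.63 to 14.64 in control STZ and 14.68 to 14.81 in control sham arrays. Of the measured markers of the other cell types named below, 7 of 9 for beta cells, 5 of 7 for T cells, 5 of 6 for macrophages, 7 of 7 for B cells and 7 of 7 for stroma lay above the limit. Control sham 1 and control STZ 3 stood apart in opposite directions in the genes described here. Control STZ 3 held the lowest value of 9 of the 30 tested genes, against 4.8% of all genes tested. Control sham 2 held the lowest value of 6 of the 30, against 9.3% of all. Control sham 1 held the highest value of 17 of the 30, against 15.8% of all genes tested, and 25 of the 30 lay above their own mean there. Its median excess over the mean of control sham 2 and 3 was 0.26 on the log2 scale, against -0.01 over all genes. That excess was above 1, a doubling of signal, for 5 of the 30 genes (16.7%) and for 0.27% of all genes: Birc5 (2.07), Mki67 (1.38), Rrm2 (1.26), Mcm6 (1.17) and Mcm5 (1.01). The counts and medians of comparisons with control sham are therefore given with and without that array, with values of the named genes in both. Over all genes, control sham 1 and low protein STZ 1 lay at the ends of the first principal component, which held 38.4% of the variance.

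**Figure D1:**
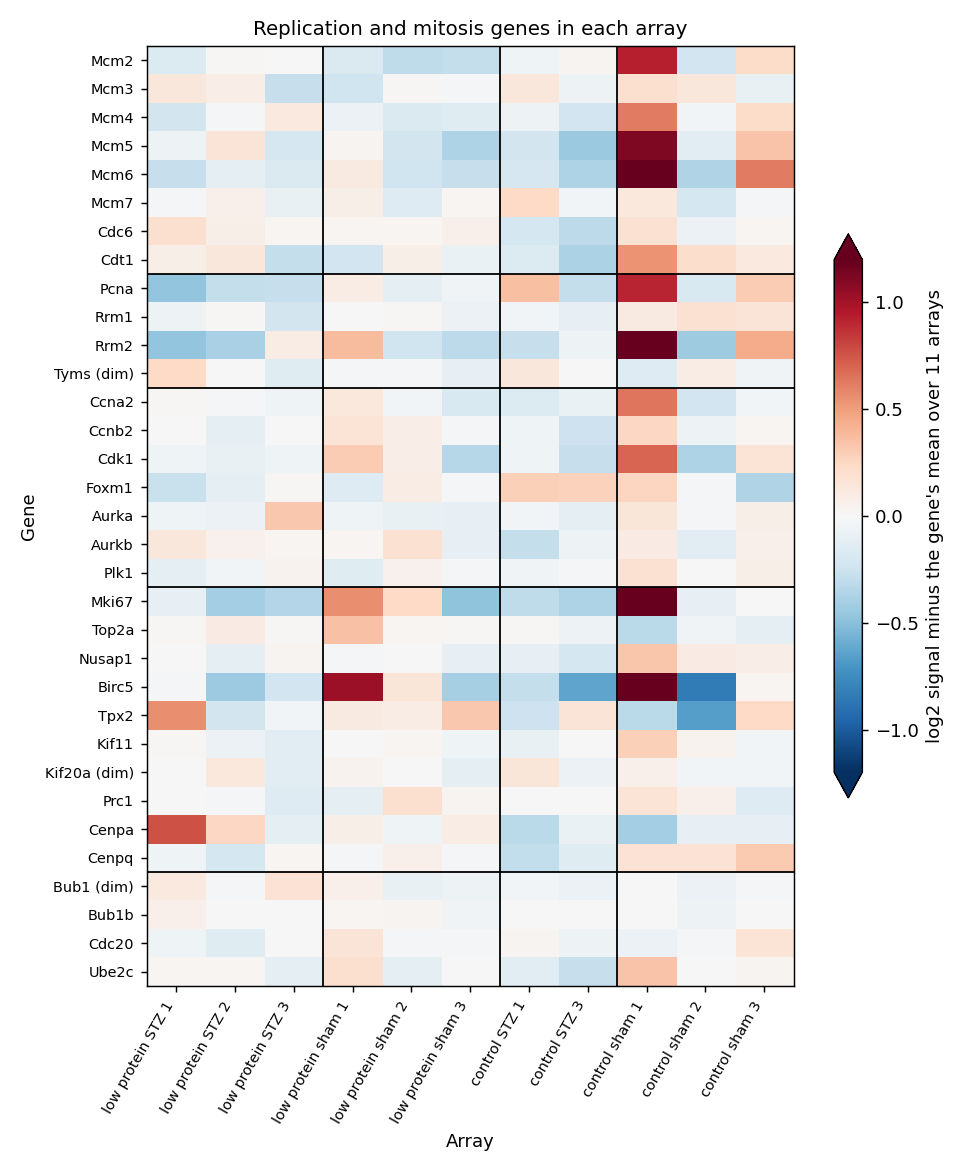
Heat map of the 33 measured genes (rows, grouped by role) in the 11 arrays (columns, grouped as low protein STZ, low protein sham, control STZ and control sham); colour is the log2 signal minus the gene's mean over all arrays. The darkest column is control sham 1, which held the highest value of 17 of the 30 tested genes.

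STZ against sham in the control diet gave lower signals for most of these genes. Of the 30, 24 were lower in control STZ than in control sham, with a median log2 difference of -0.23, against 0.00 over all genes tested, of which 49.3% were lower. None passed the test (limma, Benjamini-Hochberg over all genes, 0 of 30 and 0% of all genes called, smallest adjusted p of the 30 = 0.999). Under 0.05 in unadjusted p, 9 of the 30 were lower (2.13% of all genes tested) and 0 were higher (1.92% of all). In 11 of the 30 both control STZ arrays lay below all 3 control sham arrays (7.72% of all genes), and in 1, Foxm1, both lay above (8.64% of all). In whole tissue, fewer cells of a type and less RNA per cell cannot be told apart.

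By role, the licensing genes had the most negative median, -0.37, with 7 of 8 lower. Cdt1, the loading factor that is destroyed once copying begins, had 8.82 and 8.60 in control STZ arrays 1 and 3, against 9.52, 9.19 and 9.10 in control sham arrays 1 to 3. Both control STZ arrays lay below all 3 control sham arrays, with a fitted difference of -0.56 ± 0.16 (log2, ± SE, 1.47-fold lower, limma unadjusted p = 0.00501, adjusted p = 0.999). Another Cdt1 probe set above the limit gave 0.03 in this comparison. Cdc6, which recruits the Mcm ring together with Cdt1, had 6.87 and 6.76 in control STZ, against 7.27, 7.01 and 7.11 in control sham. The groups did not overlap and differed by -0.31 ± 0.09 (limma unadjusted p = 0.00653, adjusted p = 0.999), with 1 of the control STZ values below the limit for dim genes. Mcm4, a catalytic subunit of the Mcm ring, had 8.22 and 8.05 in control STZ, against 8.91, 8.25 and 8.51 in control sham. Those groups were apart by a small gap, and the difference was -0.42 ± 0.17. Mcm2, a ring subunit that also binds histones, had 8.90 and 8.98 in control STZ, against 9.87, 8.72 and 9.16 in control sham. Control sham 2 was the lowest of those 5 arrays and control sham 1 the highest, so the groups overlapped. Mcm6 and Mcm5, further ring subunits, differed by -0.81 ± 0.35 (1.75-fold lower) and -0.78 ± 0.28 (1.71-fold lower). Mcm6 overlapped between groups while Mcm5 did not. Other probe sets above the limit gave 0.06 for Mcm5 and -1.18 for Mcm4. Mcm3 and Mcm7 were at -0.04 ± 0.14 and 0.13 ± 0.12.

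Of the fork and nucleotide genes, all 3 tested were lower, with a median of -0.31. Rrm1, the large subunit of ribonucleotide reductase, had 8.39 and 8.32 in control STZ, against 8.53, 8.61 and 8.58 in control sham. The control sham values lay close together (8.57 ± 0.04, SD, n = 3) and above both control STZ values. The difference was -0.22 ± 0.08 (limma unadjusted p = 0.0236). Pcna, the sliding clamp, had 10.26 and 9.62 in control STZ, against 10.82, 9.72 and 10.21 in control sham. Its groups overlapped, and the difference of -0.31 ± 0.27 was close to its error. Rrm2, the small subunit whose level limits nucleotide supply, differed by -0.60 ± 0.39.

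Among the 7 tested genes of entry into mitosis 6 were lower, with a median of -0.19, and no unadjusted p was under 0.05. Cdk1, the kinase that starts mitosis, had 8.56 and 8.33 in control STZ, against 9.31, 8.24 and 8.78 in control sham. Control sham 1 was the highest of these and control sham 2 the lowest, so the groups overlapped. Aurka, the kinase of the spindle poles, had 7.64 and 7.56 in control STZ, against 7.82, 7.65 and 7.75 in control sham. The nearest values of the groups were 7.64 and 7.65. Aurkb, the kinase of the chromosomal passenger complex, had 8.56 and 8.79 in control STZ, against 8.95, 8.73 and 8.91 in control sham, with overlap. Foxm1, the transcription factor that switches on mitotic genes, ran the other way, with 13.19 in both control STZ arrays, against 13.16, 12.90 and 12.55 in control sham. Its difference of 0.32 ± 0.16 was 0.47 without control sham 1 (limma unadjusted p = 0.0664 with all arrays and 0.00712 without). The partners Ccna2 (cyclin A2) and Ccnb2 (cyclin B2) differed by -0.25 ± 0.20 and -0.22 ± 0.11, and Plk1, a kinase of many mitotic steps, by -0.11 ± 0.09.

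The chromosome and spindle genes were less uniform: 6 of 9 were lower, with a median of -0.14. Cenpq, a kinetochore protein that joins the centromere to the spindle, had the smallest p of the 30. It had 7.75 and 7.90 in control STZ, against 8.23, 8.23 and 8.37 in control sham. The gap between the groups exceeded the spread within either, at -0.45 ± 0.09 (1.36-fold lower, limma unadjusted p = 0.00053, adjusted p = 0.999). Nusap1, which bundles spindle microtubules, had 8.04 and 7.92 in control STZ, against 8.47, 8.23 and 8.21 in control sham. The groups did not overlap and differed by -0.33 ± 0.09 (limma unadjusted p = 0.00552). Mki67, which coats mitotic chromosomes and is used as a marker of dividing cells, had 7.67 and 7.61 in control STZ, against 9.31, 7.88 and 7.98 in control sham. Both control STZ arrays were below all control sham arrays, and the difference was -0.75 ± 0.39 with all arrays and -0.29 without control sham 1. Top2a, which untangles chromosomes, had 8.23 and 8.16 in control STZ, against 7.89, 8.17 and 8.11 in control sham. Cenpa, the centromeric histone, had 8.26 and 8.51 in control STZ, against 8.17, 8.49 and 8.48 in control sham. Both overlapped between groups, and here control sham 1 was the lowest array. Birc5, the passenger complex protein survivin, had the widest range of the 30, 6.61 to 6.95 in control STZ against 6.40 to 8.90 in control sham, and its difference of -0.74 ± 0.59 was -0.05 without control sham 1. Tpx2, an activator of Aurka, the spindle motor Kif11 and the midzone protein Prc1 differed by 0.20 ± 0.27, -0.14 ± 0.10 and -0.02 ± 0.11.

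Of the 3 tested checkpoint and anaphase genes, Ube2c, the ubiquitin-conjugating enzyme of the anaphase-promoting complex, differed by -0.33 ± 0.12 (limma unadjusted p = 0.0211), with no overlap between the groups. Cdc20, the activator of that complex, had 8.32 and 8.22 in control STZ, against 8.22, 8.27 and 8.45 in control sham, so its groups overlapped. Another Cdc20 probe set above the limit had 7.75 and 7.81 in control STZ, against 8.83, 7.94 and 8.37 in control sham. Its groups were apart, at -0.60 or -0.37 without control sham 1, and a further Cdc20 probe set gave -0.20. Bub1b, the checkpoint protein that restrains Cdc20, was at 0.02 ± 0.07. The probe set used ranged over 0.12 in all 11 arrays, the narrowest of the 30. Another Bub1b probe set above the limit ran from 8.43 to 9.04 over the arrays, and gave 0.18 in this comparison.

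**Figure D2:**
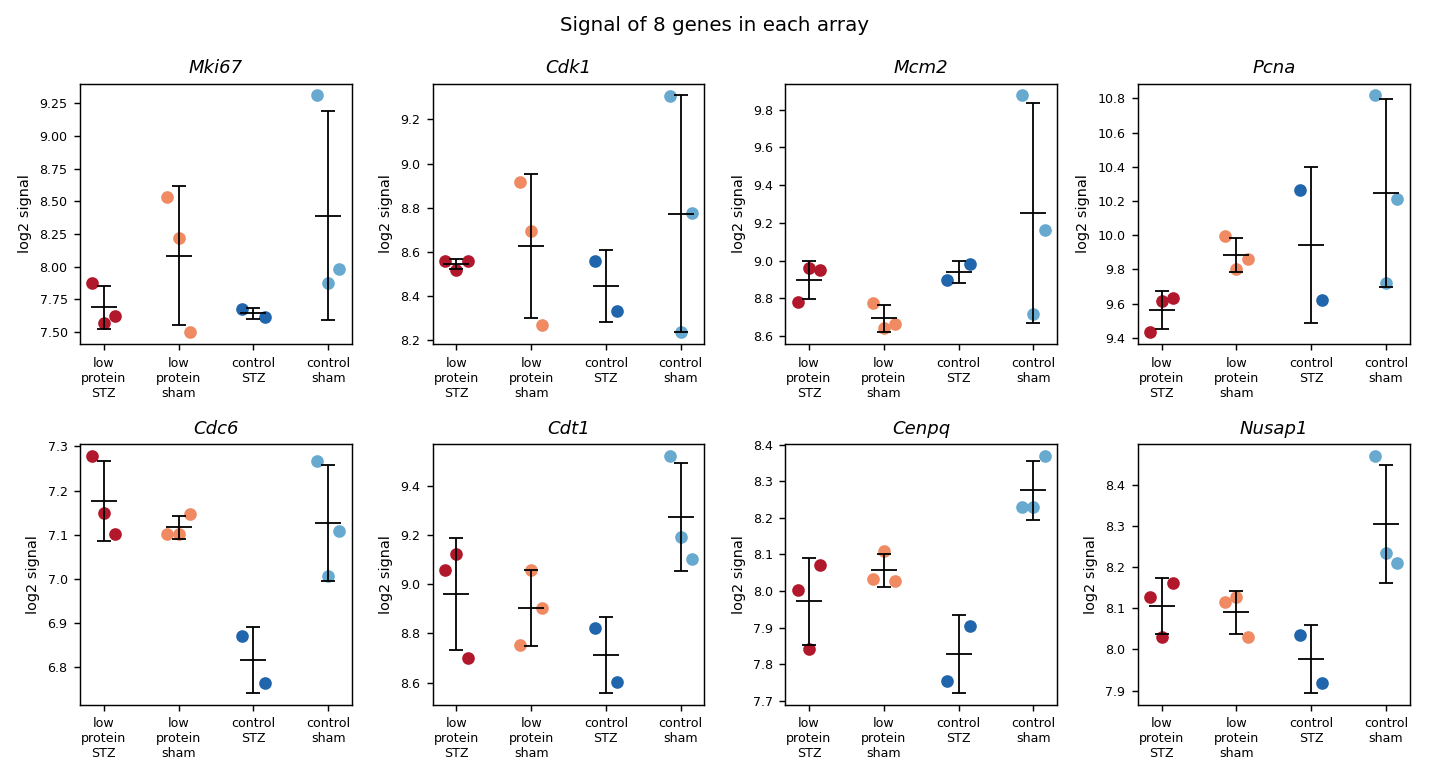
Log2 signal of 8 genes in each array (points) with the group mean and SD (bars), groups in the order low protein STZ, low protein sham, control STZ and control sham. Control sham 1 is the highest point for Mki67 (9.31), Cdk1 (9.31), Mcm2 (9.87), Pcna (10.82), Cdt1 (9.52) and Nusap1 (8.47), while the 3 control sham points of Cenpq lie between 8.23 and 8.37.

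Without control sham 1, 22 of the 30 genes were still lower in control STZ, and the median was -0.10. Then 6 were lower at an unadjusted p under 0.05 (3.05% of all genes in that fit) and 1 was higher (2.54% of all). The licensing median was -0.24 without that array, the fork and nucleotide median -0.18, the median of entry into mitosis -0.06, the chromosome and spindle median -0.05 and the checkpoint and anaphase median -0.09. Cenpq (-0.47, limma unadjusted p = 0.00107), Cdt1 (-0.43), Cdc6 (-0.24), Nusap1 (-0.24) and Rrm1 (-0.24) kept most of their size, and Foxm1 was at 0.47. Mcm5 (-0.44), Mcm6 (-0.42), Mcm4 (-0.24), Mki67 (-0.29), Ube2c (-0.22) and Rrm2 (-0.18) kept their sign at a smaller size. Cdk1 (-0.06), Plk1 (-0.06), Kif11 (-0.05), Birc5 (-0.05), Pcna (-0.02), Mcm2 (0.00), Ccna2 (0.01) and Mcm3 (0.02) were then near 0. The others were Aurkb (-0.15), Ccnb2 (-0.13), Aurka (-0.10), Cenpa (-0.10), Cdc20 (-0.09), Bub1b (0.03), Top2a (0.05), Prc1 (0.06), Tpx2 (0.16) and Mcm7 (0.21). Without control sham 2, the median was -0.32 and 17 genes were lower at an unadjusted p under 0.05 (4.27% of all genes), with 0 higher (1.87% of all). Without control STZ 3, 2 were lower (2.48% of all) and 0 higher (2.97% of all), and the lone control STZ array was then assumed to vary like the other groups.

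RNA integrity and cell type markers were compared between control sham 1 and the other arrays. The 3′ over 5′ signal of Gapdh and Actb, a measure of RNA integrity, was 1.40 to 1.91 on the log2 scale in low protein STZ, 1.22 to 1.64 in low protein sham, 1.08 and 1.93 in control STZ, and 1.496, 1.826 and 1.804 in control sham arrays 1 to 3. The mean of 7 stroma markers was 9.92 to 10.17 in low protein STZ, 9.83 to 10.23 in low protein sham, 10.18 and 10.20 in control STZ, and 10.13, 10.42 and 10.82 in control sham. The mean of 6 macrophage markers was 8.47 to 8.52 in low protein STZ, 8.43 to 8.51 in low protein sham, 8.61 and 8.45 in control STZ, and 8.27, 8.54 and 8.76 in control sham. Among the control sham arrays both means were lowest in control sham 1. The T cell marker mean was also lowest there, with 7.97, 8.07 and 7.995 in control sham arrays 1 to 3. The acinar marker mean was highest there, with 14.81, 14.73 and 14.68. The mean of 7 of 8 listed B cell markers was 8.09 to 8.20 in low protein STZ, 7.98 to 8.09 in low protein sham, 8.09 and 8.15 in control STZ, and 8.02, 8.21 and 8.07 in control sham. The mean of 9 of 11 listed beta cell markers was 8.58 to 8.77 in low protein STZ, 8.60 to 9.08 in low protein sham, 8.62 to 8.67 in control STZ and 9.38 to 9.80 in control sham. Beta cell markers were thus highest in the control sham arrays, with control sham 1 the lowest of those 3. With the RNA integrity measure as a covariate the median of the 30 genes was -0.26, and with the B cell mean it was -0.21. The part of the stroma, macrophage, T cell, acinar and beta cell transcripts in the differences was not tested.

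In the low protein diet, of the 30 genes, 16 were lower in low protein STZ than in low protein sham, with a median of -0.05, against -0.02 over all genes, of which 57.6% were lower. None passed the test (limma, 0% of all genes called, smallest adjusted p of all genes = 1). At an unadjusted p under 0.05, 0 were lower (1.91% of all genes) and 0 were higher (0.679% of all). The groups were apart in Pcna, lower after STZ (5.14% of all genes), and in Mcm2, higher after STZ (2.6% of all).

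The licensing genes lay slightly above 0 here, 7 of 8 higher with a median of 0.06. Mcm2 had 8.78, 8.96 and 8.95 in low protein STZ arrays 1 to 3, against 8.78, 8.64 and 8.66 in low protein sham. The lowest STZ value and the highest sham value were equal to 2 decimals, and the difference was 0.20 ± 0.22. Another Mcm2 probe set above the limit gave -0.01. Cdt1 had 9.06, 9.12 and 8.70 in low protein STZ, against 8.75, 9.06 and 8.90 in low protein sham. Cdc6 had 7.28, 7.15 and 7.10 in low protein STZ, against 7.10, 7.10 and 7.15 in low protein sham. Both overlapped, with differences of 0.06 ± 0.14 and 0.06 ± 0.08. Mcm4 had 8.07, 8.27 and 8.40 in low protein STZ, against 8.22, 8.12 and 8.14 in low protein sham, and the STZ arrays took in both ends of that range.

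All 3 fork and nucleotide genes were lower, with a median of -0.20. Pcna had 9.43, 9.62 and 9.63 in low protein STZ, against 9.99, 9.80 and 9.86 in low protein sham. All 3 STZ arrays were lower, with a difference of -0.32 ± 0.24, where the error comes from the spread over all groups. With the B cell marker mean as a covariate the sign turned (0.06). Rrm1 had 8.36, 8.43 and 8.20 in low protein STZ, against 8.43, 8.44 and 8.35 in low protein sham, with overlap.

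Of the mitotic kinase group, Aurka had 7.62, 7.60 and 8.00 in low protein STZ, against 7.63, 7.58 and 7.58 in low protein sham. Low protein STZ 3 alone was high, and the difference of 0.15 ± 0.10 was 0.02 without it. Aurkb had 8.99, 8.90 and 8.88 in low protein STZ, against 8.88, 9.04 and 8.75 in low protein sham. Cdk1 had 8.56, 8.52 and 8.56 in low protein STZ, against 8.92, 8.69 and 8.27 in low protein sham. The STZ arrays of Cdk1 lay close together inside the wider sham range. Foxm1 had 12.64, 12.80 and 12.93 in low protein STZ, against 12.75, 13.00 and 12.90 in low protein sham, a difference of -0.09 ± 0.14.

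Among chromosome and spindle genes, 7 of 9 were lower, with a median of -0.08. Mki67 had 7.88, 7.57 and 7.63 in low protein STZ, against 8.534, 8.222 and 7.5001 in low protein sham. Low protein sham 1 and 2 were high and low protein sham 3 was the lowest of the 6, so the groups overlapped, at -0.39 ± 0.35. Birc5 was also highest in low protein sham 1, with 6.81 to 7.21 in low protein STZ and 6.84 to 8.26 in low protein sham. Cenpa had 9.34, 8.83 and 8.46 in low protein STZ, against 8.66, 8.53 and 8.67 in low protein sham. Its difference of 0.26 ± 0.19 was 0.03 without low protein STZ 1, and another Cenpa probe set above the limit gave -0.17. Cenpq had 8.00, 7.84 and 8.07 in low protein STZ, against 8.03, 8.11 and 8.03 in low protein sham. Nusap1 had 8.13, 8.03 and 8.16 in low protein STZ, against 8.11, 8.13 and 8.03 in low protein sham. Top2a had 8.23, 8.31 and 8.23 in low protein STZ, against 8.57, 8.24 and 8.23 in low protein sham. These 3 genes overlapped between the groups, with differences of -0.08 ± 0.08, 0.01 ± 0.08 and -0.09 ± 0.10. Cdc20 had 8.24, 8.14 and 8.29 in low protein STZ, against 8.44, 8.27 and 8.27 in low protein sham, at -0.11 ± 0.09. Its other probe sets above the limit gave 0.06 and -0.21.

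**Figure D3:**
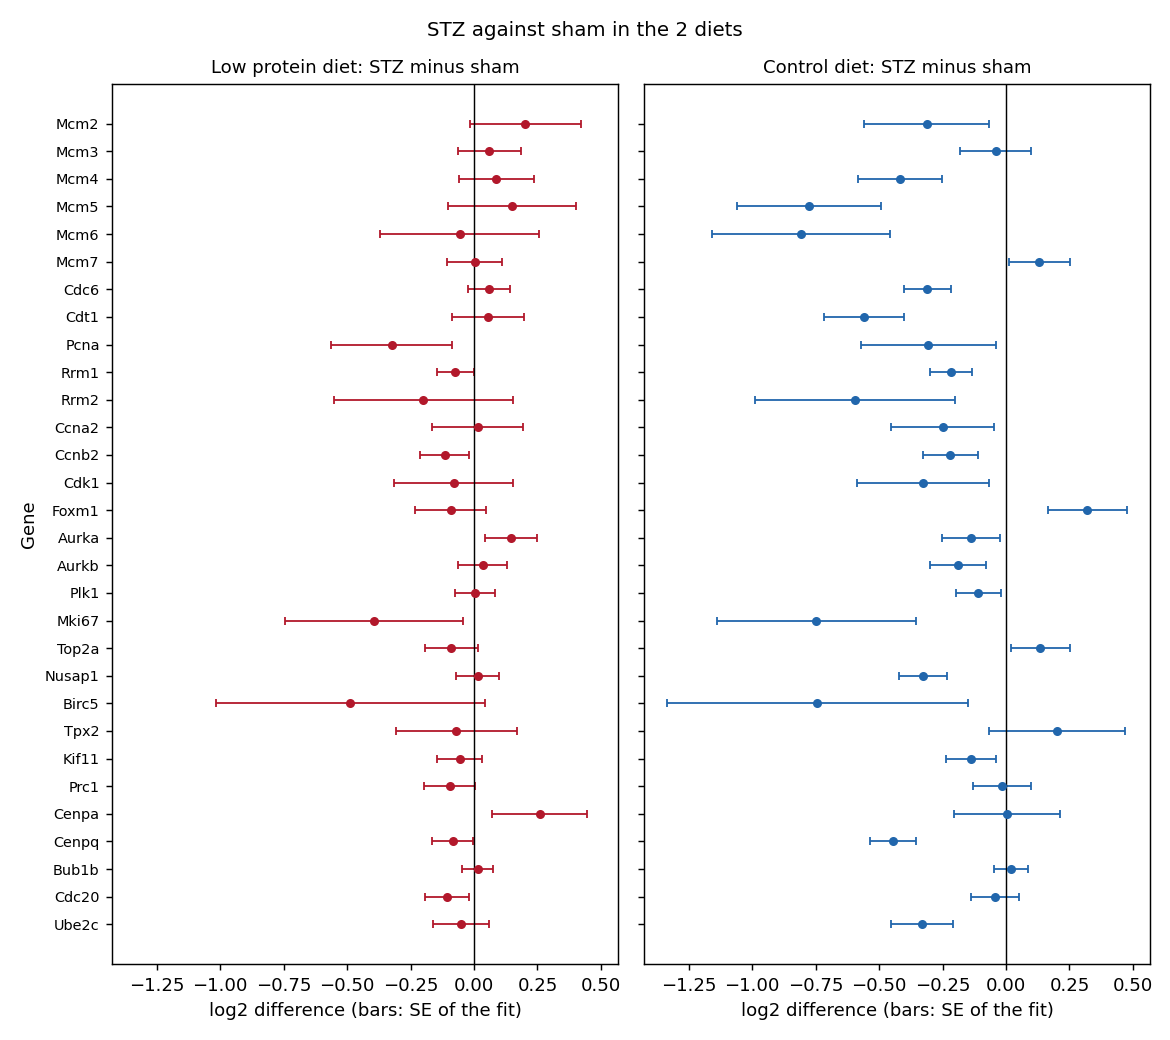
Log2 difference of STZ minus sham for the 30 tested genes in the low protein diet (left) and the control diet (right), with the SE of the fit as bars. In the low protein diet 16 of the 30 points lie below 0 with a median of -0.05, and in the control diet 24 with a median of -0.23.

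The test of the difference between the diets compared these sets of STZ differences directly. The low protein difference minus the control difference was positive for 22 of the 30 genes, with a median of 0.25, against -0.02 over all genes, of which 55.0% were negative. None passed the test (limma, 0% of all genes called, smallest adjusted p = 1). At an unadjusted p under 0.05, 6 were positive (1.35% of all genes) and 0 were negative (2.21% of all). They were Cdc6 (0.37 ± 0.12, unadjusted p = 0.0126), Cenpq (0.36 ± 0.12), Cdt1 (0.62 ± 0.21), Nusap1 (0.34 ± 0.13), Mcm5 (0.93 ± 0.38) and Mcm4 (0.51 ± 0.22). By role, the median was 0.51 for licensing genes, 0.14 for fork and nucleotide genes, 0.22 for entry into mitosis, 0.25 for chromosome and spindle genes and 0.00 for checkpoint and anaphase genes. Without control sham 1 the median over the 30 was 0.03 with 17 positive, 5 of them at an unadjusted p under 0.05 (2.28% of all genes), and 1 negative gene at such a p (3.08% of all). The licensing median was then 0.32, while that of chromosome and spindle genes was -0.11. The other Cdt1 probe set gave 0.03 for this difference, and another Bub1b probe set gave -0.38, or -0.36 without control sham 1. Other probe sets above the limit gave 0.10 for Mcm5 and 1.34 for Mcm4, the latter 0.79 without control sham 1.

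Low protein against control in sham animals used the same control sham arrays as the STZ comparison in the control diet. The litters of the dams cannot be told apart from their diet, and the labels do not give the litters. Of the 30 genes, 20 were lower in low protein sham, with a median of -0.13, against -0.02 over all genes, of which 57.7% were lower. None passed the test (limma, 0% of all genes called, smallest adjusted p of the 30 = 0.354). At an unadjusted p under 0.05, 7 were lower (7.22% of all genes) and 1 was higher (3.2% of all). In 6 genes all low protein sham arrays lay below all control sham arrays (10.2% of all genes), namely Mcm4, Cdt1, Rrm1, Aurka, Nusap1 and Cenpq, and in 2, Top2a and Cenpa, above them (5.57% of all).

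The licensing genes had the most negative median by role, at -0.38, with 7 of 8 lower, and the fork and nucleotide genes followed at -0.36. These medians were -0.23 and -0.08 without control sham 1. Mcm2 had 8.78, 8.64 and 8.66 in low protein sham, against 9.87, 8.72 and 9.16 in control sham. Control sham 2 lay within the low protein range, and the difference was -0.56 ± 0.22 (limma unadjusted p = 0.028) or -0.25 without control sham 1. Another Mcm2 probe set above the limit gave -0.03. Mcm4 had 8.22, 8.12 and 8.14 in low protein sham, against 8.91, 8.25 and 8.51 in control sham, a difference of -0.40 ± 0.15 (limma unadjusted p = 0.0216, adjusted p = 0.367) or -0.22 without control sham 1. Cdt1 had 8.75, 9.06 and 8.90 in low protein sham, against 9.52, 9.19 and 9.10 in control sham. Its lowest control sham value stood just above its highest low protein value, and the difference was -0.37 ± 0.14, or -0.24 without control sham 1, while the other Cdt1 probe set gave 0.08. Mcm6 and Mcm5 differed by -0.65 ± 0.31 and -0.63 ± 0.25, and by -0.26 and -0.29 without control sham 1. Other probe sets above the limit gave 0.10 for Mcm5 and -0.88 for Mcm4.

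Of the later genes, Cenpq had 8.03, 8.11 and 8.03 in low protein sham, against 8.23, 8.23 and 8.37 in control sham. Rrm1 had 8.43, 8.44 and 8.35 in low protein sham, against 8.53, 8.61 and 8.58 in control sham. These groups did not overlap, and the differences of -0.22 ± 0.08 and -0.17 ± 0.07 were -0.24 and -0.19 without control sham 1. Top2a had 8.57, 8.24 and 8.23 in low protein sham, against 7.89, 8.17 and 8.11 in control sham. It was higher in low protein sham by 0.29 ± 0.10 (limma unadjusted p = 0.0192), and by 0.20 without control sham 1. That p was the smallest of the 30 in the probe sets used, but another probe set of Top2a gave -0.42. Another probe set of Bub1b above the limit gave 0.48 with no overlap, or 0.46 without control sham 1. Its limma unadjusted p was 0.000628 when each gene was read from its most variable probe set, chosen after the data were seen. Tpx2 was at 0.42 ± 0.24, the largest positive difference in the probe sets used, and at 0.38 without control sham 1. Other Tpx2 probe sets above the limit gave 0.32, -0.01 and 0.01. Without control sham 1 the median over the 30 was 0.00, with 15 lower and 15 higher. The unadjusted p was then under 0.05 for 1 lower gene (6.64% of all genes) and for 0 higher genes (2.79% of all). Birc5 was at 0.67, against -0.02 with all arrays.

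**Figure D4:**
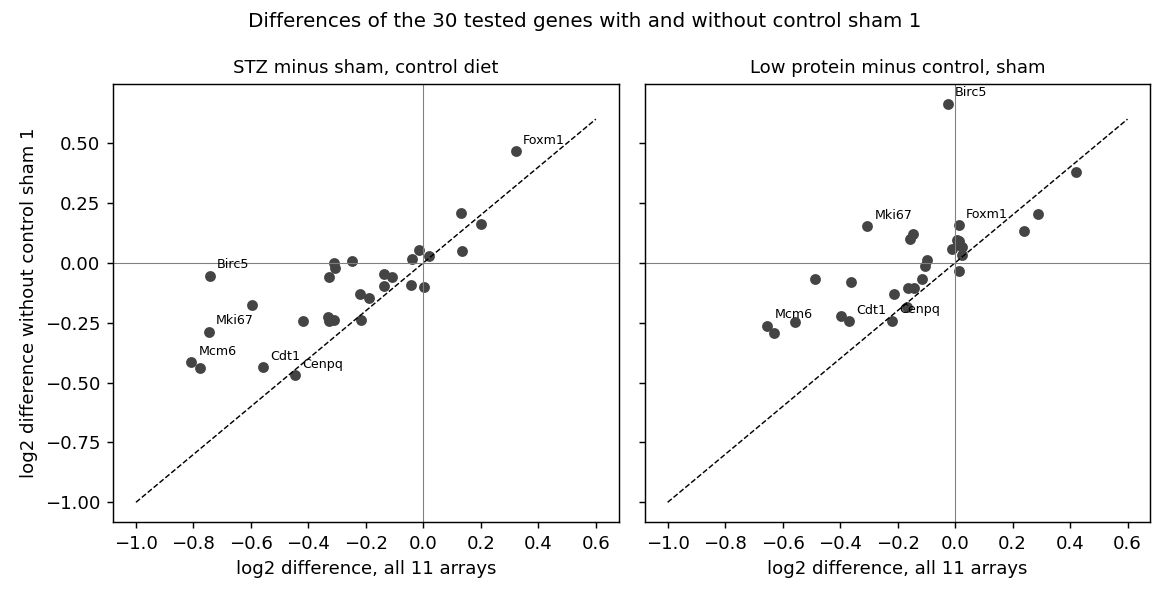
Log2 differences of the 30 tested genes with all 11 arrays (horizontal) and without control sham 1 (vertical), for STZ minus sham in the control diet (left) and low protein minus control in sham animals (right); the dashed line marks equal values. Most points lie above the line, as Mcm6 does on the left (-0.81 with all arrays, -0.42 without), while Cenpq lies close to it (-0.45 and -0.47).

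After STZ, low protein against control involved no control sham array. Of the 30 genes, 19 were higher in low protein STZ than in control STZ, with a median of 0.10, while over all genes the median was -0.04 and 62.3% were lower. None passed the test (limma, 0% of all genes called, smallest adjusted p of the 30 = 0.348). Unadjusted p values under 0.05 were found for 3 higher genes (1.7% of all genes) and 1 lower gene (7.79% of all). In Mcm5, Cdc6, Ccna2, Aurkb and Ube2c all low protein STZ arrays lay above both control STZ arrays (7.48% of all genes), and in Foxm1 and Prc1 below them (16.8% of all).

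Cdc6 had the smallest p of the 30 here as well as in the test of the difference between diets, which shares the control STZ arrays. It had 7.28, 7.15 and 7.10 in low protein STZ, against 6.87 and 6.76 in control STZ. All 3 low protein arrays were higher, by 0.36 ± 0.09 (1.28-fold, limma unadjusted p = 0.00262, adjusted p = 0.348), and leaving out any 1 array gave 0.31 to 0.41. Aurkb had 8.99, 8.90 and 8.88 in low protein STZ, against 8.56 and 8.79 in control STZ, a difference of 0.25 ± 0.11 with no overlap. Cenpa had 9.34, 8.83 and 8.46 in low protein STZ, against 8.26 and 8.51 in control STZ. Its highest control STZ value lay above its lowest low protein STZ value, and the difference of 0.49 ± 0.21 was 0.26 without low protein STZ 1. Another Cenpa probe set above the limit gave -0.11. Foxm1 had 12.64, 12.80 and 12.93 in low protein STZ, against 13.19 in both control STZ arrays. Both control STZ values lay above all low protein values, and the difference was -0.40 ± 0.16 (limma unadjusted p = 0.0276). It was 0.04 under cyclic loess scaling, so its direction depended on the scaling. Licensing genes had a median of 0.10, fork and nucleotide genes -0.09 with 3 of 3 lower, entry into mitosis 0.11, chromosome and spindle genes 0.13 and checkpoint and anaphase genes 0.02.

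Averaged over both diets, STZ minus sham was negative for 22 of the 30 genes, with a median of -0.12 against -0.01 over all genes, of which 54.1% were negative. No gene passed (limma, 0% of all genes called, smallest adjusted p = 0.999). At an unadjusted p under 0.05, 6 were lower (2.38% of all genes) and 0 were higher (0.856% of all). Cenpq (-0.27 ± 0.06, limma unadjusted p = 0.00128), Rrm1 (-0.15 ± 0.06), Nusap1 (-0.16 ± 0.06) and Cdt1 (-0.25 ± 0.11) had the smallest p. Averaged over both injections, low protein minus control was negative for 21 of the 30, with a median of -0.04 against -0.03 over all genes, of which 62.2% were negative. No gene passed there (limma, 0% of all genes called, smallest adjusted p of the 30 = 0.217). At an unadjusted p under 0.05, 0 were lower (11.7% of all genes) and 3 were higher (3.65% of all), namely Cdc6 (0.17 ± 0.06), Cenpa (0.37 ± 0.14) and Top2a (0.18 ± 0.08). Other probe sets above the limit gave -0.01 for Cenpa and -0.12 for Top2a. Without control sham 1 the median was -0.07 for STZ, with 21 lower, and 0.00 for low protein, with 14 lower. For STZ, 2 genes were then lower at an unadjusted p under 0.05 (2.56% of all genes) and 0 were higher (1.05% of all), and for low protein 0 were lower (10.3% of all) and 1 was higher (2.81% of all). Cenpq (-0.28), Rrm1 (-0.16), Nusap1 (-0.11) and Cdt1 (-0.19) kept their sign for STZ, as did Cdc6 (0.21), Cenpa (0.31) and Top2a (0.13) for low protein. Pcna had -0.31 ± 0.18 for STZ and -0.37 ± 0.18 for low protein (-0.17 and -0.23 without control sham 1), and its group means were 9.56 ± 0.11 in low protein STZ, 9.88 ± 0.10 in low protein sham, 9.94 ± 0.46 in control STZ and 10.25 ± 0.55 in control sham (SD, n = 3, 3, 2 and 3).

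Different probe sets of a gene did not always give the same answer. Of the 30 genes, 17 had more than 1 probe set above the limit, and in 7 of the 17 the sign of STZ minus sham in the control diet differed between them (Aurka, Cdt1, Mcm5, Mcm7, Rrm2, Top2a and Tpx2). Over all 55 probe sets of the 30 genes above the limit, 41 were lower after STZ in the control diet and 31 were highest in control sham 1. Reading each gene from its most variable probe set, a choice made after the data had been seen, gave 25 of 30 lower and a median of -0.31 in that comparison. Mcm4 was then at -1.18, Mcm7 at -0.82 and Top2a at -0.59. Without control sham 1 the same reading gave a median of -0.12. The mean of all probe sets above the limit, also chosen afterwards, gave 26 of 30 lower and a median of -0.25.

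**Figure D5:**
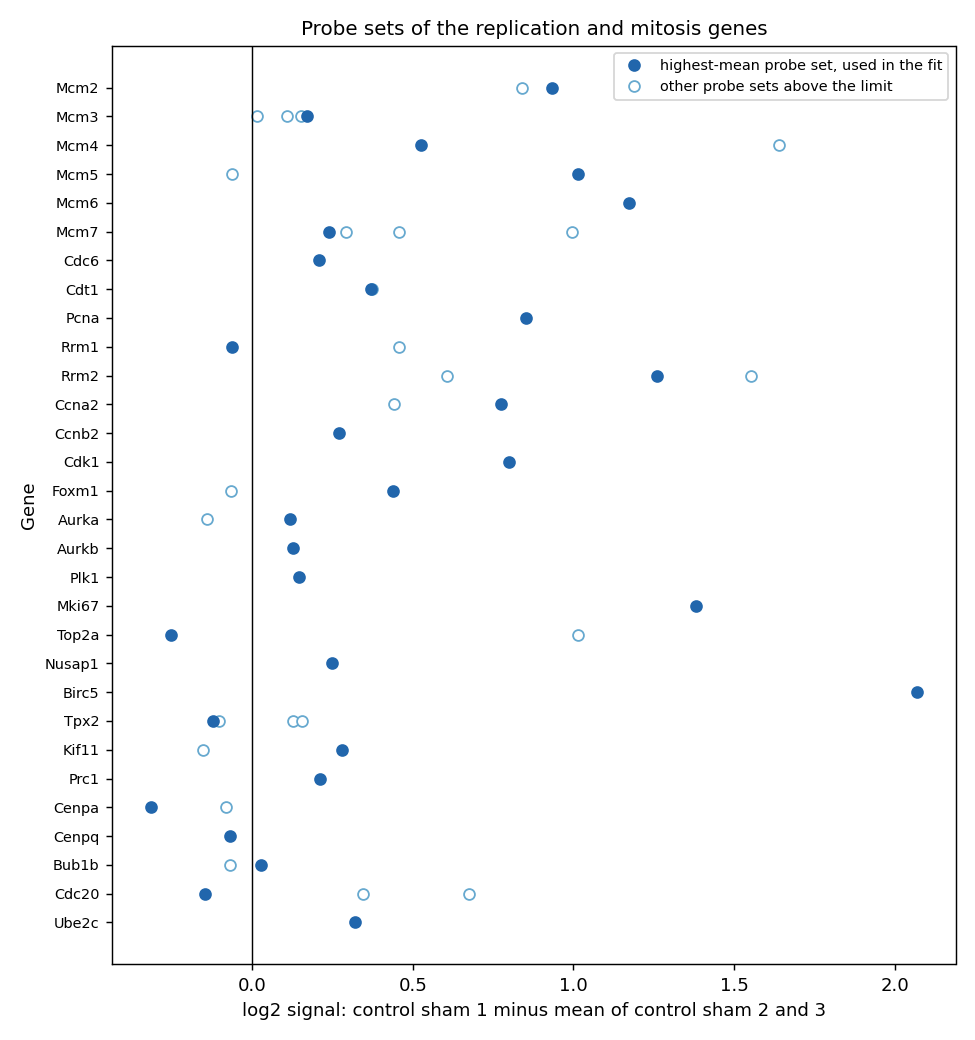
Log2 signal of control sham 1 minus the mean of control sham 2 and 3 for every probe set above the limit of the 30 tested genes; filled points are the probe sets used in the fit and open points the others. Birc5 lies farthest to the right (2.07), and the filled and open points of Top2a fall on opposite sides of 0 (-0.25 and 1.01).

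A wider list of 150 other replication and mitosis genes, of which 124 were tested, was read in the same way. In control STZ against control sham, 89 of the 124 were lower, against 49.3% of all genes, with a median of -0.08, and 0 passed (limma). The unadjusted p was under 0.05 for 11 lower genes (2.13% of all genes tested) and 1 higher gene (1.92% of all). Without control sham 1, 81 of the 124 were lower and the median was -0.05. By role, 13 of 15 origin and helicase genes were lower, among them Dbf4 (-0.47 ± 0.15), the activator of the kinase that fires origins. Of the other fork and nucleotide genes 16 of 22 were lower. Among them were Rfc5 (-0.35 ± 0.12), a subunit of the clamp loader, and Rpa1 (-0.56 ± 0.23), which coats single-stranded DNA. The flap nuclease gene Fen1 was higher (0.19 ± 0.08). Its group means of 14.81 to 15.08 were near the mean of the brightest acinar marker, Cpa1 (15.51). Whether its probe set reads Fen1 alone was not tested. Centromere and kinetochore genes were lower in 19 of 23, with Spc25 (-0.79 ± 0.30), of the Ndc80 complex, and Ttk (-0.25 ± 0.09), a checkpoint kinase. Spindle, cohesion and division genes were lower in 32 of 46, with the condensin subunit Smc4 (-0.9985 ± 0.44) and Stmn1 (-0.83 ± 0.34), a microtubule regulator. Cell cycle transcription factors were split, 9 lower and 9 higher, with a median of 0.01. With control sham 1 left out, the values were -0.38 for Dbf4, -0.25 for Rfc5, -0.30 for Rpa1, 0.20 for Fen1, -0.4964 for Spc25, -0.29 for Ttk, -0.63 for Smc4 and -0.47 for Stmn1. Control sham 1 held the highest value of 41 of the 124 genes (33.1%), against 15.8% of all genes tested.

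In low protein STZ against low protein sham 71 of 124 were lower (median -0.01), against 57.6% of all genes. In low protein sham against control sham 75 were lower (median -0.03), against 57.7% of all genes, or 58 (median 0.01) without control sham 1. There the securin gene Pttg1 was at 0.61 ± 0.15, the histone-binding protein gene Rbbp4 at -0.52 ± 0.12, Fen1 at 0.27 ± 0.07 and the checkpoint gene Bub3 at -0.38 ± 0.11, with limma adjusted p of 0.209, 0.209, 0.224 and 0.233. With control sham 1 left out, these were 0.58, -0.41, 0.27 and -0.30. In low protein STZ against control STZ 77 of 124 were higher (median 0.04), while 62.3% of all genes were lower. Pttg1 was at 0.53 ± 0.17 there, the condensin gene Ncaph at 0.43 ± 0.15 and Gins1, of the replicative helicase, at 0.24 ± 0.07. Their limma adjusted p values were 0.382, 0.407 and 0.376, and 0 of the 124 passed. The difference between the diets in the STZ effect was positive for 77 of the 124, with a median of 0.06, while 55.0% of all genes were negative. Without control sham 1 it was positive for 70, with a median of 0.03.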

How the data were processed

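Total RNA of whole pancreas was measured on 11 Affymetrix mouse arrays. The values are log2 signals of 45101 probe sets as deposited by the authors. The tools listed, per the submitters' processing notes, are Partek 6.5 and RMA, without their roles, and the genome build is not given in the sources used here. Of the probe sets, 34958 had 1 gene symbol in the platform annotation, 932 several and 9211 none. Each gene was read from its one-gene probe set with the highest mean, and genes at or below the 0.25 quantile of probe set means (6.87) were not tested, which left 15897 genes. No further scaling was applied.

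All 11 arrays were fitted with limma 3.58.1 (R 4.3.3) as 4 group means, and p-values were two-sided with Benjamini-Hochberg adjustment over all genes tested at a threshold of 0.05. The spread was shared by the groups. The fit was tested on simulated data, and tables and figures were made with Python 3.11.15. The labels call the arrays biological replicates without naming litters, so p-values measure the spread between these animals treated as independent. Groups share replicate numbers. After each gene's group mean was subtracted, the correlations of same-numbered arrays lay between -0.32 and 0.26 and were not all above 0.1. The numbers were therefore not taken to pair the arrays.

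The genes and the lists were chosen with earlier results of these data known. Values in every array are printed for the 4 genes with the smallest p in each of the 7 comparisons and for Mki67, Pcna, Top2a, Cdk1, Mcm2 and Ccnb1 (not analysed here), and genes of the wider list are named where they were among the 3 smallest p of their role. The fit was repeated with array weights, with a replicate block, on the compared groups only, with trend and robust moderation, after cyclic loess, on every probe set, without the dim filter, with covariates for RNA integrity and B cell markers, with a rule of unadjusted p and a 1.5-fold minimum, and without each array in turn. Promoter sequences are RefSeq's (GRCm38.p6).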

Additional observations from a re-analysis of the deposited data

How the results depend on the processing

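Under the settings run, no gene of the 30 passed the adjusted test in any comparison. Another rule was an unadjusted p under 0.05 and at least 1.5-fold. It called 2 of the 30 for control diet STZ, 1 for low protein in sham animals and 2 for the difference of STZ effects. Of all 15897 genes tested, it called 43 for control diet STZ, 9 for low protein diet STZ and 198 for low protein in sham animals. It called 226 for low protein after STZ, 8 for STZ averaged over diets, 151 for low protein averaged over injections and 60 for the difference. Array weights gave 7 genes for low protein in sham animals and 796 averaged over injections, and the B cell covariate 702 for that average. Leaving out 1 array gave 0 to 1 genes for control diet STZ, 0 to 126 for low protein in sham animals, 0 to 1 for low protein after STZ and 0 to 460 for low protein averaged over injections. The median of the 30 for the difference of STZ effects was 0.0291 to 0.3087 when 1 array was left out, lowest without control sham 1, and 0.32 with the B cell covariate. The replicate block gave medians of -0.28 for the control diet STZ comparison and 0.29 for the difference, with 0 genes called. The median for STZ in the low protein diet changed sign to 0.02 without low protein sham 1, 0.05 with the B cell covariate and 0.00 under cyclic loess and without the filter.

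Among the genes with the smallest p of each comparison, signs turned in 6 cases, and the cause was not tested. With the most variable probe set these were Aurka for STZ in the low protein diet (-0.0175) and Top2a for low protein in sham animals (-0.4207) and averaged over injections (-0.1245). The others were Top2a in sham animals with the mean of probe sets (-0.0662), Pcna for STZ in the low protein diet with the B cell covariate (0.0618) and Foxm1 for low protein after STZ under cyclic loess (0.0425). Further genes changed sign when 1 array was left out, such as Mcm2 for STZ averaged over diets (0.10 without control sham 1). Groups of 2 or 3 arrays, and signals of Cdc6 close to the limit for dim genes, bound the precision of these comparisons. Where a control STZ array was left out, the lone array was assumed to vary like the other groups.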
